A study of Mus musculus with 12 samples.

Results

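Y RNA reads and the reads of the Ensembl non-coding RNA classes (snoRNA, snRNA, scaRNA, lincRNA, antisense, misc_RNA and others) were followed across 12 mouse small RNA libraries. All classes of the annotation summaries whose names start with the Y RNA database or with Ensembl were taken, with reads that matched the genome and reads that did not added together. This gave 21 members, namely the Y RNA total, RNY1, RNY3 and 18 Ensembl class totals, of 1380 features other than rRNA classes. RNY1 and RNY3 make up the Y RNA total, so these members share reads and are not independent in counts and medians of members. The Ensembl classes have no gene names below the class, so a class total sums all its genes and a change in 1 abundant gene cannot be told apart from a change in many. Levels are given as RPM, reads per 1000000 clean reads other than those of the rRNA database.

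The 6 sperm libraries came from C57BL6/J males on a control diet with 16% of its energy as fat (CD, 3 libraries) or a high-fat diet with 69% in the sample labels (HFD, 3 libraries), fed for 7 weeks from 4 weeks of age, and each library pooled the epididymal sperm of 3 samples. The study's methods give the high-fat diet a lower share of energy from fat than the labels do. The 6 other libraries came from TM4 cells, an established mouse Sertoli cell line, as control cells (Ctrl, 2 libraries), cells given Compound C, an inhibitor of AMPK, at 10 µM for 12 hours (CC, 2 libraries), and cells that overexpressed the full-length coding sequence of Ang, the ribonuclease angiogenin, from a plasmid (Ang OE, 2 libraries). The labels name neither an empty-vector nor a vehicle control, and CC and Ang OE share the same Ctrl libraries. They also do not say that the TM4 replicates were separate cultures, so the p-values for TM4 cells may measure technical spread alone.

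Clean reads ranged from 31710445 to 64038150 per library. The rRNA share was 16.5 to 32.9% in sperm and 5.92 to 8.58% in TM4 cells. Summed miRNA markers of epididymal epithelium were 4480 to 7580 RPM in sperm and 0.719 to 1.55 RPM in TM4 cells, those of red blood cells 6749 to 13352 and 547 to 822 RPM, and those of germ cells 1829 to 5021 and 550 to 1335 RPM. All 10 germ cell markers were detected in sperm, and 4 of 10 were at 0 in Ctrl TM4 cells. The sperm preparations thus held RNA with the markers of other cell types, and its part in the levels given here was not tested. Sertoli cell markers are messenger RNAs and were not measured here.

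Y RNAs are short transcripts of RNA polymerase III that fold back into a stem and loop and bind the Ro60 protein. They are known for a role in the start of DNA replication, and fragments of them are found in many cells and body fluids. The small nucleolar RNAs (snoRNAs) guide chemical modification of ribosomal RNA, the scaRNAs do the same for the small nuclear RNAs (snRNAs) of the spliceosome, and the lincRNAs are long transcripts from between protein-coding genes. Reads of these classes in a small RNA library match short stretches of the parent RNA. A level here is thus a level of reads in the sequenced size range and not of the whole RNA. The reads may include piRNAs that match these genes, because piRNA databases were searched after Ensembl, and their part was not tested.

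The mouse genes with the names of the 2 Y RNA subclasses lie close together on chromosome 6. Their GENCODE sequences (GRCm39, DNA letters) are shown because the Y RNA results turn on the ratio of these 2 RNAs. Capitals mark the bases that RNAfold pairs in the closing helix of the stem.
Rny1: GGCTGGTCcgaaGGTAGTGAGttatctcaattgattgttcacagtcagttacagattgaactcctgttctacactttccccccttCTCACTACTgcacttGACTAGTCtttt
Rny3: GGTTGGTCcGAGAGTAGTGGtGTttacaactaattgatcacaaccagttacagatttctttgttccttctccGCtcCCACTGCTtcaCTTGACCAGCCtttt
Rny1 is the 112 nt transcript at chr6:47765003-47765114 on the minus strand. It overlaps a lncRNA gene annotated under the same name, and 34 of its bases pair in that helix. Rny3 is the 102 nt transcript at chr6:47758558-47758659 on the plus strand, with 42 paired bases, and overlaps the lncRNA genes Gm67031 and Gm67032. Both are annotated as misc_RNA. The starts lie 6445 bp apart, and 81 of 112 aligned positions (72.3%) are identical. The longest run the 2 share is 12 nt, in the loop region between the strands of the helix. The deposited summaries hold no read sequences, so which end of each Y RNA the fragments came from was not analysed here.

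Together the members took 2.69 to 3.71% of the reads without rRNA in sperm, 6.38 to 6.54% in Ctrl TM4 cells, 5.68 to 5.70% in CC cells and 3.96 to 4.35% in Ang OE cells. snoRNA held the most reads in both kinds of cell, with a median of 9953 RPM in sperm and 28628 RPM in TM4 cells. By their read totals, which are not scaled for length, lincRNA (5910 RPM), snRNA (4110 RPM) and processed_transcript (3262 RPM), Ensembl's class for transcripts without an open reading frame, came next in sperm. In TM4 cells the order below snoRNA was processed_transcript (14026 RPM), lincRNA (6037 RPM) and snRNA (1936 RPM). The library ranges of snoRNA and lincRNA overlapped in sperm, as did those of snRNA and processed_transcript, while every lincRNA value lay above every snRNA value. In TM4 cells snoRNA lay above processed_transcript and processed_transcript above lincRNA in every library, and the lincRNA and snRNA ranges overlapped. Y RNA had a median of 1271 RPM in sperm and 763 RPM in TM4 cells. At the low end, sRNA had 0 reads in the 6 sperm libraries and 0 to 3 reads in TM4 cells, and scRNA 0 to 9 reads in sperm. These 2 classes had too few reads to pass the filter of 10 reads in any comparison, and 3prime_overlapping_ncRNA and macro_lncRNA too few to pass it between the diets. Fits without the filter held them, apart from sRNA between the diets, and called neither sRNA nor scRNA in any comparison and none of the 20 members between the diets (1.67% of 1317 features).

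RNY1 in the CD libraries stood at 766, 981 and 892 RPM, in the HFD libraries at 731, 605 and 1012 RPM, in Ctrl TM4 cells at 693 and 601 RPM, in CC cells at 803 and 518 RPM and in Ang OE cells at 700 and 679 RPM. RNY3 stood at 466, 477 and 418 RPM in CD, 452, 318 and 440 RPM in HFD, 98.1 and 97.2 RPM in Ctrl, 133 and 90.8 RPM in CC, and 78.3 and 68.9 RPM in Ang OE. Every sperm library was above every TM4 library for RNY3, whereas the 2 ranges overlapped for RNY1.

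**Figure D1:**
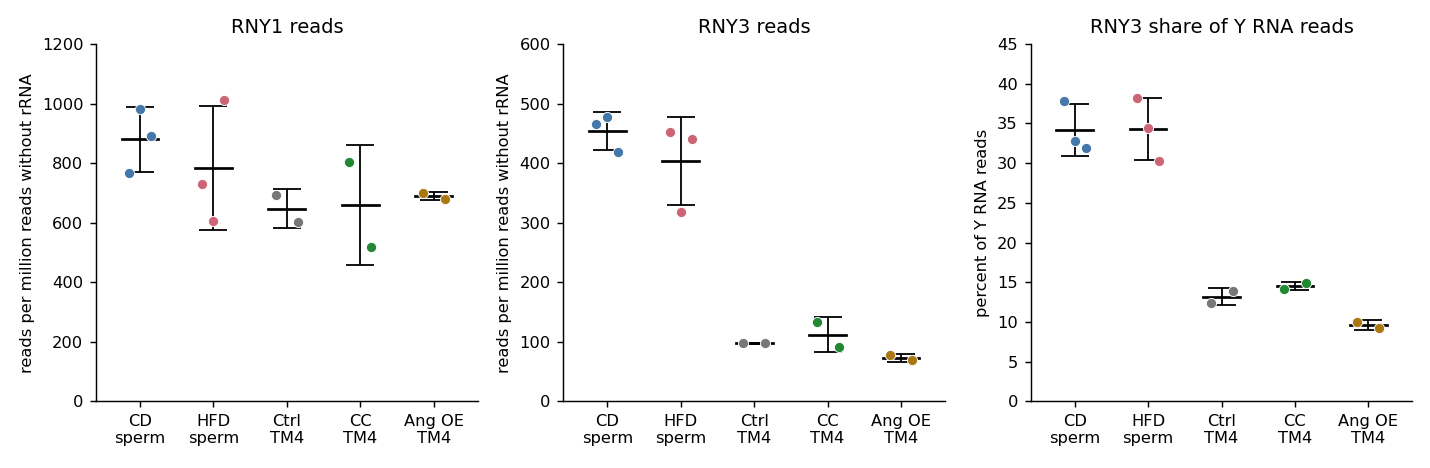
RNY1 (left) and RNY3 (middle) in RPM, and the RNY3 share of Y RNA reads in percent (right), in each library by group, with the group mean (line) and SD (bars; n = 3 for sperm groups, n = 2 for TM4 groups). RNY3 was 318 to 477 RPM in sperm and 68.9 to 133 RPM in TM4 cells, while the RNY1 ranges overlapped.

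RNY3 made up 37.8% (95% Wilson interval 37.3 to 38.4), 32.7% (32.2 to 33.2) and 31.9% (31.4 to 32.4) of the Y RNA reads in the CD libraries. The HFD libraries had shares of 38.2% (37.7 to 38.7), 34.4% (33.8 to 35.1) and 30.3% (29.9 to 30.8). These intervals cover counting error only, and most libraries of 1 diet lay further apart than their intervals reach. The mean share was 34.2% ± 3.22 (SD, n = 3) in CD and 34.3% ± 3.94 (SD, n = 3) in HFD, a difference of 0.160 percentage points (exact 2-sided permutation test, p = 0.9). Its direction was not stable, with -1.78 to 2.16 percentage points when 1 library was left out and -0.099 with the reads of each diet added.

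In TM4 cells RNY3 was a smaller fraction of the Y RNA reads, at 12.4% (12.1 to 12.7) and 13.9% (13.6 to 14.3) in Ctrl. CC cells had 14.2% (13.9 to 14.5) and 14.9% (14.5 to 15.3), and Ang OE cells 10.1% (9.76 to 10.4) and 9.20% (8.93 to 9.49). Both Ang OE libraries were below both Ctrl libraries and both CC libraries above them, but an exact test of 2 libraries against 2 cannot pass the 0.05 threshold and none was run. CD sperm exceeded Ctrl TM4 cells by 21.0 percentage points with no overlap (exact permutation test, p = 0.1, the smallest p this design allows). Per base of the parent RNA, the level of RNY1 was 1.47 to 2.09 times that of RNY3 in sperm and 5.19 to 8.99 times in TM4 cells.

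The comparison of CD sperm with Ctrl TM4 cells asked how the members' levels differ between the mature germ cell preparation and the cell line, and tissue and cell line differ in much besides cell type. RNY3 was 2.22 higher in sperm on the log2 scale (SE 0.18, edgeR adjusted p = 2.59e-05), and total Y RNA was 0.84 higher (SE 0.17, adjusted p = 0.00210). RNY1 differed by 0.44 (SE 0.18, adjusted p = 0.0509). This value missed the threshold of 0.05 but passed it with TMM (1.01) and with the size factors of DESeq2 (1.18). It also passed in edgeR with a filter of 100 reads, genome-matched reads alone and a replicate block (adjusted p of 0.0433, 0.0493 and 0.0489). Without CD replicate 1 it passed too (0.53, adjusted p = 0.0379). The RNY1 value ranged from 0.19 to 1.18 over the alternatives and from 0.34 to 0.55 with a library left out. Of 17 members with at least 10 reads in a library of each group, 8 were higher in sperm, where 36.8% of 882 features were, and 4 were lower, where 50.3% were. Another 2, 3prime_overlapping_ncRNA and macro_lncRNA, were called lower but reached the filter only through TM4 cells, where they were high, and are given as a description. With those 2 counted, the split moved from 8 higher and 6 lower to 11 and 4 with TMM, where 41.6% of features were higher and 44.4% lower, and to 12 and 3 with the size factors of DESeq2, where 43.7% were higher and 40.1% lower. The median over all features was -0.73 and the median of the 17 members 0.58 on the log2 scale. With TMM the median was -0.17 over all features and 1.12 over 19 members, and with DESeq2 size factors 0.0088 and 1.26. Without Ctrl replicate 1 or Ctrl replicate 2 the median over all features was 0.12 or 0.037.

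Among the other members that were higher in sperm was Mt_rRNA, the mitochondrial ribosomal RNA reads left by the databases matched before Ensembl. It reached 1512, 1526 and 1167 RPM in CD against 166 and 121 RPM in Ctrl, a log2 difference of 3.29 (SE 0.24, edgeR adjusted p = 1.70e-05). sense_overlapping and sense_intronic, non-coding transcripts that overlap or lie within introns of protein-coding genes, were 3.04 and 2.59 higher. scaRNA was 291, 335 and 316 RPM in CD against 163 and 127 RPM in Ctrl, a log2 difference of 1.11 (SE 0.20, adjusted p = 0.00129). antisense was 0.94 and bidirectional_promoter_lncRNA 0.75 higher, and the latter call was lost with all clean reads as library size (0.49, edgeR adjusted p = 0.104). That call was lost as well without CD replicate 2 (0.47, edgeR adjusted p = 0.0576). It was also lost without either Ctrl library (0.75 in each), and the antisense call without Ctrl replicate 2 (0.91). A fit without a Ctrl library has 1 left in that group and takes its spread from the CD libraries alone. Such a fit cannot tell an unstable call from lower power.

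snoRNA and processed_transcript, a class that includes host genes of snoRNAs, were lower in sperm. snoRNA was 8641, 10467 and 9891 RPM in CD and 32478 and 31632 RPM in Ctrl, a log2 difference of -1.73 (SE 0.13, adjusted p = 1.83e-05). processed_transcript was 2807, 3718 and 3255 RPM in CD and 16937 and 14056 RPM in Ctrl, a difference of -2.25 (SE 0.17, adjusted p = 1.79e-05). No CD library came near the Ctrl range for either class. The Ensembl miRNA class (-0.97) and ribozyme, the RNA subunits of enzymes such as RNase P (-0.84), were also lower, but neither call held with TMM (-0.41 and -0.28) or with DESeq2 size factors. 3prime_overlapping_ncRNA had 4 reads over the CD libraries and 36 over Ctrl, so its level in Ctrl was 6.44 times that in CD (exact interval of the ratio 2.31 to 24.9, counting error only). macro_lncRNA had 0 reads in CD and 71 in Ctrl and was at least 16.9-fold lower in sperm, with a floor of 3 reads over the group. lincRNA, snRNA, misc_RNA and rRNA were not called, with log2 differences between -0.33 and 0.58. snRNA, at adjusted p = 0.0532, was called higher with TMM (1.14), with DESeq2 size factors (1.32), with a replicate block (0.50) and without CD replicate 1 or Ctrl replicate 1 (0.72 and 0.90). The Ensembl rRNA class was called higher with DESeq2 size factors (1.26), with a replicate block (0.88) and without CD replicate 3 (0.91). The direction of misc_RNA depended on the scaling, from -0.10 to 0.46 with TMM and 0.63 with DESeq2 size factors, both called, and that of lincRNA from -0.33 to 0.23 and 0.38, neither called. lincRNA was called lower in sperm when CD replicate 2 was left out (-0.62, adjusted p = 0.0204).

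**Figure D2:**
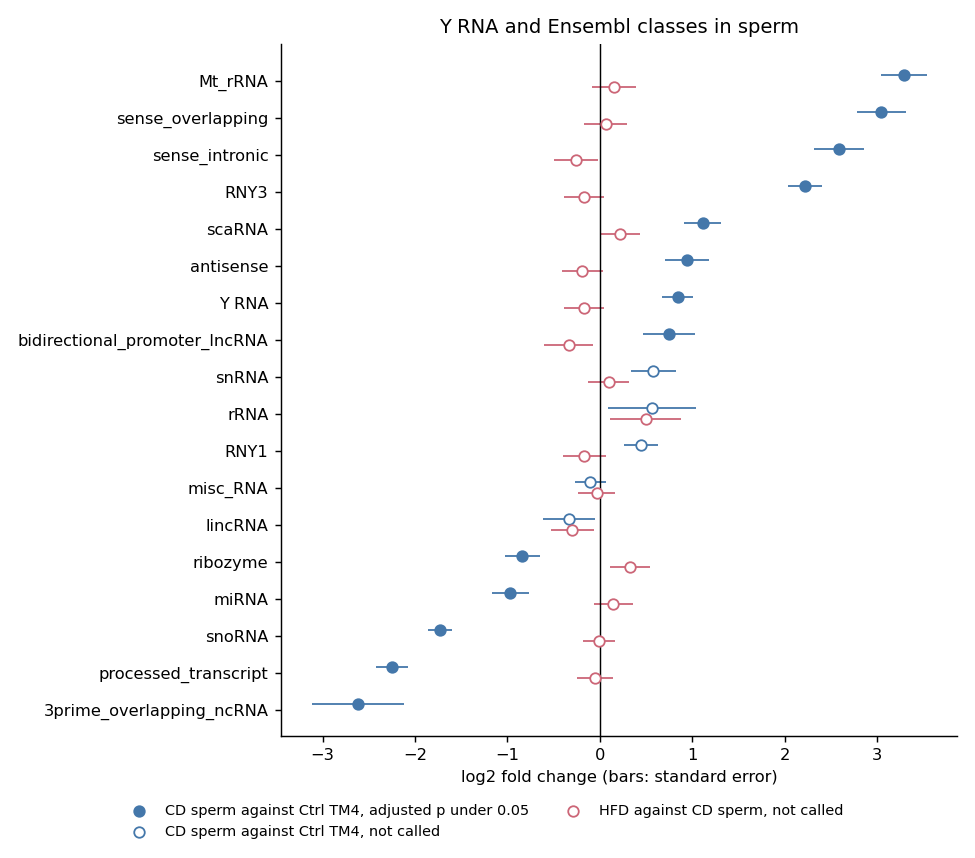
Log2 fold change with its standard error (bars) of each member in CD sperm against Ctrl TM4 cells (blue, filled where the adjusted p was under 0.05) and in HFD against CD sperm (red, all open). macro_lncRNA, with 0 reads in CD sperm, is not drawn. RNY3 was 2.22 above and snoRNA 1.73 below 0 in the first comparison, and the diet values all lay between -0.34 and 0.50.

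The diet comparison asked whether these classes differ in sperm of HFD males. None of 17 members tested was called in edgeR, none had an unadjusted p under 0.05, and DESeq2 with the same library sizes called 0 as well. The background was 0.00% of 729 features called in edgeR and 0.137% in that DESeq2 fit, with 85 features (11.7%) at an unadjusted p under 0.05 in edgeR. The members' log2 fold changes ran from -0.34 for bidirectional_promoter_lncRNA to 0.50 for the Ensembl rRNA class, with standard errors of 0.17 to 0.38 and adjusted p-values of 0.575 to 0.976. Their median was -0.033, beside 0.24 over all features. With TMM, which moves the median of all features to 0.00, the members' median was -0.27 and 3 members had an unadjusted p under 0.05, but no member was called.

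Y RNA was 1232, 1458 and 1311 RPM in CD and 1183, 923 and 1452 RPM in HFD. The HFD replicate 2 library was the lowest and the ranges overlapped, with a log2 fold change of -0.17 (SE 0.22, edgeR adjusted p = 0.725). The value moved to -0.017 when that library was left out and to -0.34 when HFD replicate 3 was. Over the alternative fits it ranged from -0.41 to -0.17. lincRNA was 5618, 9809 and 6202 RPM in CD and 6850, 5308 and 5453 RPM in HFD, where the CD replicate 2 library stood above the other 5 (log2 fold change -0.30, SE 0.24, adjusted p = 0.602). Without that library the value was -0.0097. snRNA was 3085, 4247 and 4399 RPM in CD and 3972, 3423 and 5140 RPM in HFD. snoRNA had 10368, 8432 and 10015 RPM in HFD, which overlapped with CD, and a log2 fold change of -0.0092.

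The ribozyme class was the only member whose diets did not overlap in RPM, and per 1000000 of all clean reads it overlapped too, at 27.0, 27.3 and 25.9 in CD and 26.8, 32.3 and 32.9 in HFD. In RPM it was 35.9, 36.6 and 31.0 in CD and 40.0, 46.4 and 43.6 in HFD, and 15.4% of all features were likewise higher in every HFD library. The log2 fold change was 0.33 (SE 0.22, edgeR adjusted p = 0.575), or 0.097 with TMM and 0.12 with DESeq2 size factors. The exact permutation test on RPM gave p = 0.1, the smallest p possible, and 0.725 after adjustment over 29 class totals, of which 2 (6.90%) did not overlap between the diets. The summed white blood cell miRNA markers also did not overlap between the diets, at 279 to 333 RPM in CD and 419 to 712 RPM in HFD. The sum was mainly mir-142a, and mir-150 on its own overlapped (32.7 to 48.3 and 33.4 to 101 RPM). The part of these markers in the ribozyme values was not tested.

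Reads of these classes that carried no match to the genome were few. All Y RNA and snoRNA reads matched the genome, and the exceptions were mainly lincRNA, processed_transcript and antisense. In CD sperm 404, 1060 and 626 lincRNA reads had no match, or 0.266% (95% Wilson interval 0.241 to 0.293), 0.456% (0.429 to 0.484) and 0.364% (0.337 to 0.394) of the class. The HFD libraries had 474, 202 and 156 such reads, or 0.248% (0.227 to 0.272), 0.165% (0.144 to 0.190) and 0.102% (0.0873 to 0.119). Each HFD share lay below each CD share, but the intervals of HFD replicate 1 and CD replicate 1 overlapped. The exact permutation test gave p = 0.1, the smallest p possible, and 0.167 adjusted over 5 classes.

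In levels, the lincRNA reads without a match were 14.9, 44.7 and 22.6 RPM in CD and 17.0, 8.77 and 5.57 RPM in HFD, which overlapped. edgeR on the reads without a match gave a log2 fold change of -1.39 (SE 0.36, adjusted p = 0.0141), the 1 call among 130 features (0.769%). The call was lost with DESeq2 (adjusted p = 0.188), with a replicate block (-1.42, adjusted p = 0.341) and when CD replicate 2, HFD replicate 2 or HFD replicate 3 was left out (adjusted p of 0.339, 0.148 and 0.271), and without CD replicate 2 the value was -0.84. The shares of processed_transcript (0.366 to 0.439% in CD, 0.321 to 0.349% in HFD) and of bidirectional_promoter_lncRNA were also lower in each HFD library, and antisense and sense_intronic overlapped. The bidirectional_promoter_lncRNA share rested on 6, 10 and 6 reads in CD and 2, 1 and 4 in HFD. Of 133 features with such reads in at least 3 sperm libraries and genome-matched reads in all 6, 8 (6.02%) had a lower share in each HFD library, these 3 classes among them. In TM4 cells the lincRNA share without a match was 0.00157 to 0.0114%, from 8 to 16 reads per library. Against Ctrl, CD sperm was 6.72 higher in such lincRNA reads and 1.71 higher in such processed_transcript reads on the log2 scale. In that fit 84.9% of 139 features were called, 23.7% higher and 61.2% lower. The log2 differences of the 2 class totals were -0.33 and -2.25.

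**Figure D3:**
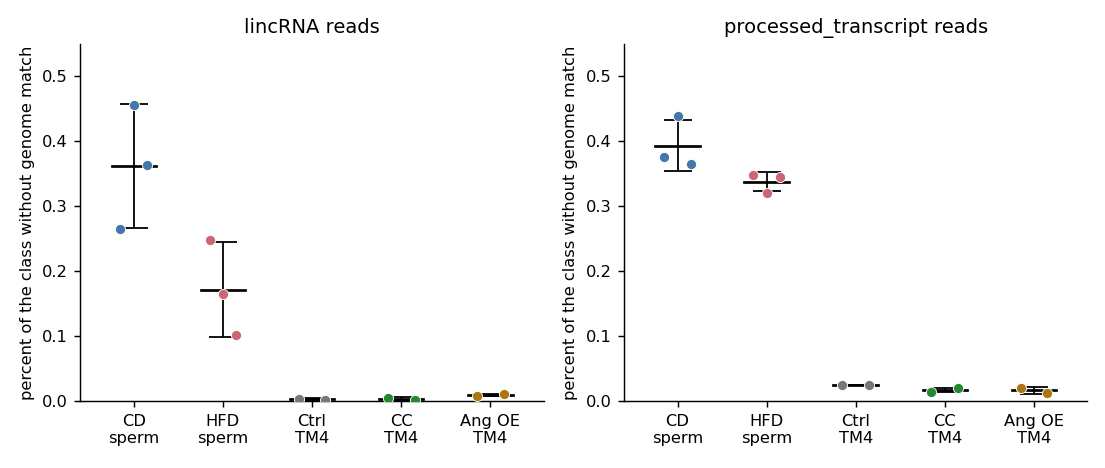
Percent of lincRNA reads (left) and processed_transcript reads (right) without a match to the genome in each library by group, with the group mean (line) and SD (bars; n = 3 for sperm groups, n = 2 for TM4 groups). The lincRNA share was 0.266 to 0.456% in CD, 0.102 to 0.248% in HFD and at most 0.0114% in TM4 cells.

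In TM4 cells, inhibition of AMPK by CC was compared with Ctrl. edgeR called 0 of 19 members (0.00% of 811 features), with 1 member and 118 features (14.5%) at an unadjusted p under 0.05, and DESeq2 with the same library sizes also called 0 members and 28 features (3.45%). The member under 0.05 in edgeR was bidirectional_promoter_lncRNA, transcripts that start close to the promoter of a gene on the other strand. It was 60.7 and 60.8 RPM in Ctrl and 40.3 and 44.5 RPM in CC, with no overlap and a log2 fold change of -0.52 (SE 0.15, adjusted p = 0.237). After ComBat-seq adjustment by replicate number it passed the threshold (-0.53, adjusted p = 0.0341), in a fit that called 48 of 811 features (5.92%).

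Of the other members, snoRNA was 32478 and 31632 RPM in Ctrl and 29232 and 28024 RPM in CC, with no overlap (log2 fold change -0.16, SE 0.10, edgeR adjusted p = 0.496). In all, 6 members were lower in both CC libraries, where 20.5% of features were, and 1 was higher, where 27.7% were. Y RNA was 791 and 698 RPM in Ctrl and 936 and 609 RPM in CC, so the CC libraries lay on either side of Ctrl (0.053, SE 0.22, adjusted p = 0.937). lincRNA varied more between replicates, at 7223 and 10952 RPM in Ctrl and 4851 and 10724 RPM in CC (-0.22, SE 0.36, adjusted p = 0.821). In both groups replicate 2 had the higher lincRNA and the lower Y RNA value. RNY3 in CC was 0.20 above Ctrl (SE 0.21, adjusted p = 0.716).

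Ang OE cells were compared with the same Ctrl libraries to ask what overexpression of the ribonuclease does to small RNA classes other than tRNA. Of 18 members with at least 10 reads in a library of each group, 6 were lower and 0 higher in edgeR, where 13.7% of 811 features were lower and 11.7% higher. They were lincRNA, bidirectional_promoter_lncRNA, Mt_rRNA, antisense, snoRNA and misc_RNA. Y RNA was not among them. 3prime_overlapping_ncRNA was also called lower, but it passed the filter only through Ctrl and CC cells, where it was high. The median log2 fold change of the 18 was -0.47 beside -0.21 over all features. With TMM, which brought the latter to 0.021, 6 members were called lower with 3prime_overlapping_ncRNA among them, while 7.15% of features were lower and 17.5% higher. The members are parts of 1 total, and in Ang OE cells miRNA took 61.8 to 65.3% of the reads without rRNA against 56.2 to 59.9% in Ctrl, and mature tRNA 3.68 to 4.96% against 2.27 to 2.76%.

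Apart from that of 3prime_overlapping_ncRNA, which rests on few reads, the largest of these differences was in lincRNA. Its level was 7223 and 10952 RPM in Ctrl, 4851 and 10724 RPM in CC, and 2396 and 2420 RPM in Ang OE. Both Ang OE libraries were below all other libraries of the series, and the log2 fold change from Ctrl was -1.92 (SE 0.37, edgeR adjusted p = 0.0158). snoRNA was 19228 and 21387 RPM in Ang OE, below every Ctrl and CC library, with a log2 fold change of -0.66 (SE 0.10, adjusted p = 0.0100). misc_RNA, the class that holds RNAs such as 7SK and the signal recognition particle RNA, was 1926 and 1932 RPM in Ctrl and 1230 and 1240 RPM in Ang OE (-0.64, SE 0.13, adjusted p = 0.0169).

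**Figure D4:**
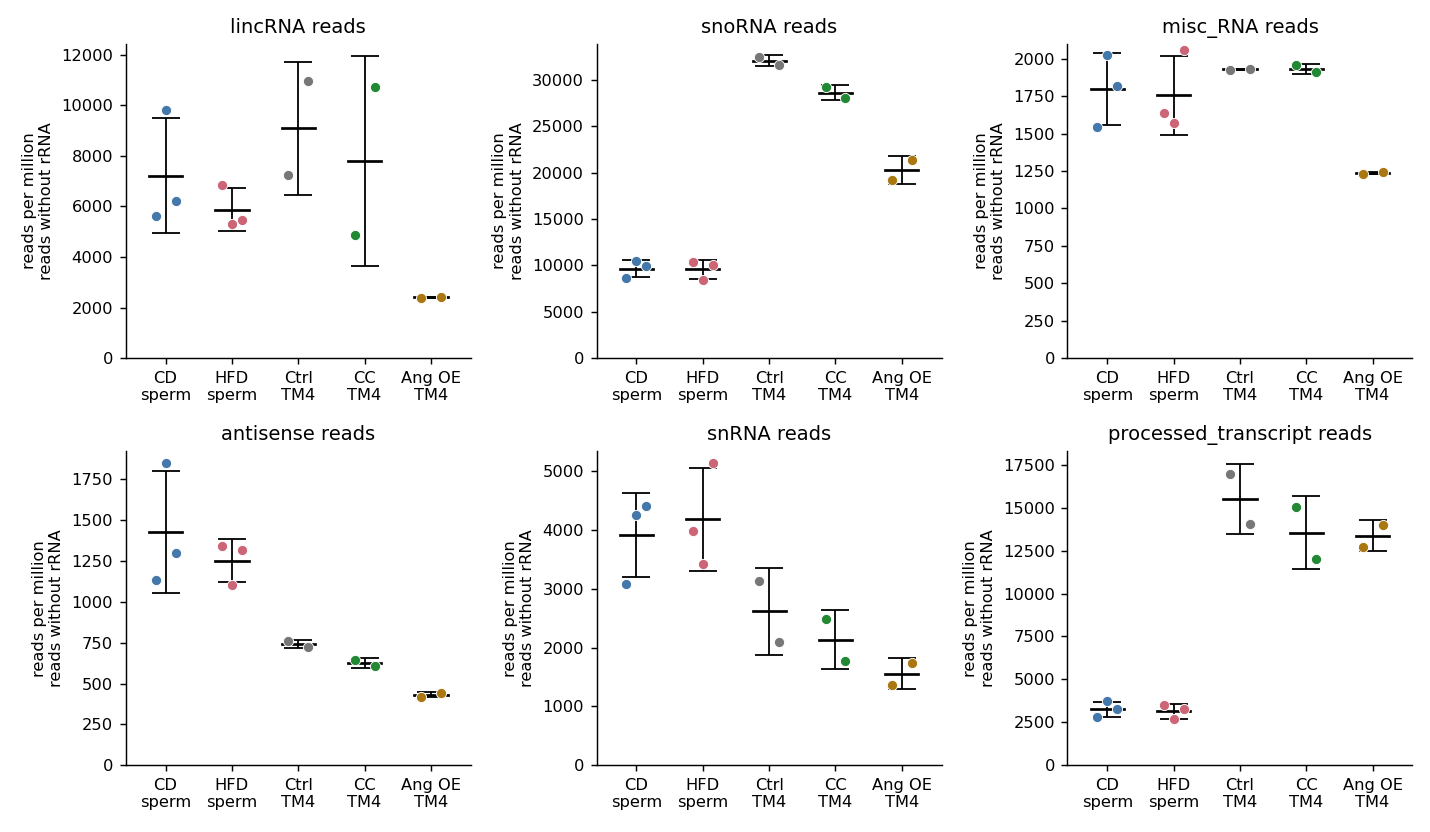
RPM of lincRNA, snoRNA, misc_RNA, antisense, snRNA and processed_transcript in each library by group, with the group mean (line) and SD (bars; n = 3 for sperm groups, n = 2 for TM4 groups). In Ang OE cells lincRNA was 2396 and 2420 RPM, below the 7223 and 10952 RPM of Ctrl cells, while processed_transcript at 12710 and 13996 RPM stood just under the Ctrl libraries.

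The long non-coding classes antisense and bidirectional_promoter_lncRNA fell as well. antisense was 759 and 723 RPM in Ctrl and 421 and 444 RPM in Ang OE (-0.78, SE 0.14, edgeR adjusted p = 0.0135). bidirectional_promoter_lncRNA was 26.6 and 28.5 RPM in Ang OE, under the range of Ctrl and of CC, with a log2 fold change of -1.14 (SE 0.15, adjusted p = 0.00674). Mt_rRNA was 166 and 121 RPM in Ctrl and 67.7 and 71.6 RPM in Ang OE (-1.04, SE 0.29, adjusted p = 0.0395), a call that TMM did not give (adjusted p = 0.0916). 3prime_overlapping_ncRNA rested on 18 and 18 reads in Ctrl and 2 and 4 in Ang OE, and the Ctrl level was 5.69 times the Ang OE level (exact interval 2.38 to 16.5).

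Other members did not pass the test. Y RNA was 778 and 748 RPM in Ang OE, within the range of Ctrl (log2 fold change 0.036, SE 0.22, edgeR adjusted p = 0.913), and RNY1 had 0.093 (SE 0.23, adjusted p = 0.780). RNY3 lay below both Ctrl libraries, with -0.41 (SE 0.21, adjusted p = 0.196). snRNA was 3138 and 2096 RPM in Ctrl and 1370 and 1741 RPM in Ang OE, with no overlap, and its -0.75 (SE 0.26) missed the threshold (adjusted p = 0.0746). It passed with ComBat-seq (0.0494), with a crossed replicate block (0.0105) and without CC replicate 1 (0.0486), and the value ranged from -1.01 to -0.43 with a library left out. scaRNA was 163 and 127 RPM in Ctrl and 136 and 158 RPM in Ang OE, which overlapped. Over the 18 members, 15 were lower in both Ang OE libraries than in both Ctrl libraries, where 41.4% of all features were.

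These calls rest on 2 libraries a group, and a fit without 1 of them has 1 library left in that group. The spread in such a fit comes from the other TM4 groups, so its counts cannot tell an unstable call from lower power. The same holds for Ang OE against CC below. Of 19 members edgeR called 0 without Ang OE replicate 1 (6 at an unadjusted p under 0.05), where it called 0 of 806 features, and 1 when Ang OE replicate 2 was left out, where it called 16 of 800. It called 3 without Ctrl replicate 1 (84 of 805 features) and 1 without Ctrl replicate 2 (42 of 788). The log2 fold changes of the 7 members called with all libraries stayed below 0 in each of these fits, and that of lincRNA between -2.19 and -1.59. The miRNA markers of smooth muscle summed to 61711 to 79792 RPM in Ang OE cells and 29771 to 31248 RPM in Ctrl, mainly mir-143. Those of mesenchymal cells summed to 80430 to 81725 and 45538 to 49384 RPM, mainly mir-21a. In that list mir-214 was lower in Ang OE (1221 to 1558 and 1780 to 2107 RPM) and mir-199a-1 overlapped. Those of germ cells summed to 1195 to 1335 and 591 to 609 RPM, mainly mir-34c. Red blood cell markers, almost all mir-486a, were lower in Ang OE, at 547 to 584 and 806 to 822 RPM. White blood cell markers were lower too, at 1.45 to 1.74 and 2.28 to 2.42 RPM. Their part in the lower class levels was not tested. In bulk RNA such as this, fewer cells of a type and less RNA per cell cannot be told apart.

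**Figure D5:**
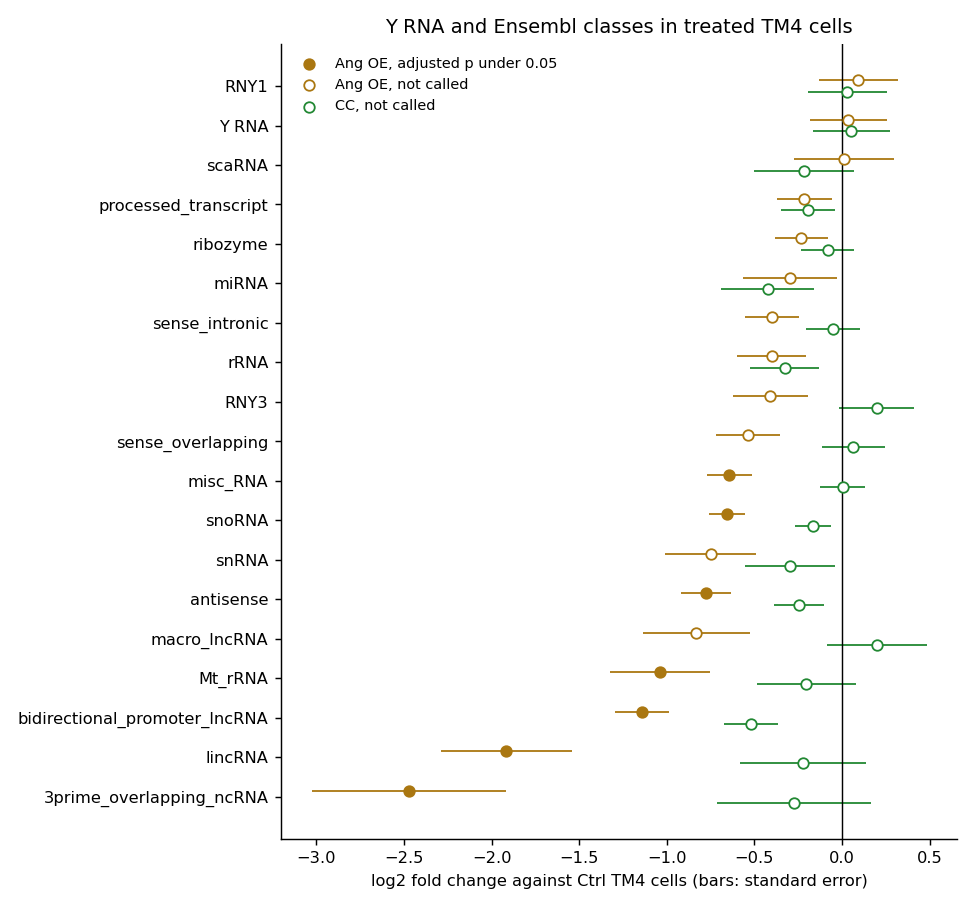
Log2 fold change against Ctrl TM4 cells with its standard error (bars) for each of 19 members in Ang OE cells (brown, filled where the adjusted p was under 0.05) and in CC cells (green, all open). The 7 filled Ang OE points lie between -2.47 and -0.64, and the CC points lie between -0.52 and 0.20.

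Ang OE was also set directly against CC, the test of whether the 2 treatments differ from each other. Of 18 members with at least 10 reads in a library of each group, edgeR called 7 lower in Ang OE and 0 higher, where 20.7% of features were lower and 13.3% higher. lincRNA was -1.69 (SE 0.37, adjusted p = 0.0148), misc_RNA -0.65 (SE 0.13, adjusted p = 0.0111), bidirectional_promoter_lncRNA -0.62 (SE 0.15, adjusted p = 0.0223), antisense -0.53 (SE 0.14, adjusted p = 0.0292) and snoRNA -0.50 (SE 0.10, adjusted p = 0.0127). The lincRNA value was -2.16 without CC replicate 1 and -1.01 without CC replicate 2, and its call was lost without either Ang OE library (adjusted p of 0.103 and 0.104). macro_lncRNA (74 reads in CC and 38 in Ang OE) and sense_overlapping completed the list, but both calls were lost with each library left out, with TMM, with the 2 groups alone and with DESeq2 at the same library sizes (adjusted p of 0.0875 and 0.0916). 3prime_overlapping_ncRNA (27 and 6 reads) was called lower as well but passed the filter only through Ctrl and CC cells. With it the count was 8. Under TMM it was 3, where 12.1% of features were lower and 20.3% higher, and the snoRNA, antisense and bidirectional_promoter_lncRNA calls were also lost, as they were with DESeq2 size factors. The antisense call was lost as well with the 2 groups alone (adjusted p = 0.0813) and in 5 of the 6 fits with a library left out (0.0758 to 0.103), and that of bidirectional_promoter_lncRNA in 4 of these 6 (0.0501 to 0.103). The snoRNA call was lost without CC replicate 1 (0.0545) and the misc_RNA call without Ang OE replicate 1 (0.0515). The count was 3 without Ctrl replicate 1 or CC replicate 1 (31.1 and 27.3% of features called), 5 without Ctrl replicate 2 (252 of 788 features), 6 without CC replicate 2 (27.1%), 1 when Ang OE replicate 1 was left out (106 of 806 features called) and 2 when Ang OE replicate 2 was (144 of 800). RNY3 missed the threshold at -0.61 (SE 0.21, adjusted p = 0.0679), but passed it with DESeq2 at the same library sizes (0.0485), with a replicate block (0.0485), with ComBat-seq (0.0185) and without CC replicate 2 (-0.85, 0.0188). Mt_rRNA missed it at -0.84 (adjusted p = 0.0604) and passed it in those same 4 fits (0.0303, 0.0417, 0.0222 and 0.0139) and with no filter (0.0397). Y RNA did not pass the test (-0.017, SE 0.22, adjusted p = 0.956).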

How the data were processed

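Small RNA libraries (TruSeq, 15 to 45 nt reads) of 6 sperm and 6 TM4 samples were analysed from the estimated counts deposited by the authors, 1 annotation summary per library from SPORTS1.1 with 1 mismatch allowed. Per the submitters' processing notes, FastQC 0.12.0, Trimmomatic 0.40 and build mm10 were used. Reads were matched to rRNA, tRNA, mitochondrial tRNA and miRNA databases before Ensembl, so Ensembl rRNA, Mt_rRNA and miRNA hold what the earlier steps left. The piRNA databases came after Ensembl, so a read that matches both an Ensembl gene and a piRNA counts under Ensembl. The place of the Y RNA database in that order is not given in the sources used here. How reads in overlapping genes were shared among Ensembl classes is not given either, nor are strand rules.

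The estimated counts were rounded. Features were subclasses other than rRNA, classes without subclasses, and the members' totals. The class totals summed to the clean reads within 2 reads. Library size was clean reads minus rRNA reads. edgeR 4.0.16 (quasi-likelihood, R 4.3.3, no scaling factors) was fitted to features with at least 10 reads in 3 sperm libraries, or in 2 libraries in fits with TM4 cells. The 6 TM4 libraries shared 1 model, and CD sperm and Ctrl had their own. The p-values were adjusted over all features tested, with a threshold of 0.05. The SE is the size of the log2 fold change over the square root of F. Shares and RPM were compared by exact 2-sided permutation tests, where 3 against 3 cannot go below p = 0.1. Alternatives were DESeq2 1.42.0, TMM, other library sizes and filters, ComBat-seq (sva 3.50.0), a replicate block and leaving out each library. For TM4 cells the study adjusted batches that its methods do not name, so replicate number stood in for them.

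In 172 simulated features with a log2 change of 2 in the diet design, edgeR recovered 99.4% and made 4 false calls among 719 features, and in 199 such features in the Ang OE against Ctrl design it recovered 95% with 12 false calls among 803. Smaller changes, such as those of the members between the diets, were not simulated. Replicates differed by more than counting noise (chi-square per degree of freedom 710 to 8210). Same-numbered TM4 libraries of Ctrl and CC deviated together (r = 0.580 over 791 features), those of Ctrl and Ang OE did not (r = -0.201), nor did the sperm pairs (r = -0.235, -0.0738 and 0.151), and no label says that the numbers pair samples.

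All class totals were named. The members, lists and tests were chosen with earlier results of these data known, and the RNY3 share and the fits to lincRNA reads without a genome match were chosen after their values were seen. Y RNA sequences were read from GENCODE vM39 and folded with RNAfold 2.7.2.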

Additional observations from a re-analysis of the deposited data

How the results depend on the processing

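With DESeq2 and the same library sizes the counts of members called equalled those of edgeR, but for Ang OE against CC 6 of the 8 were shared, with macro_lncRNA and sense_overlapping lost and RNY3 and Mt_rRNA gained. In the diet comparison the count stayed at 0 in the planned fits, except that reads without a genome match gave 1. For CC against Ctrl it was 1 with ComBat-seq (5.92% of features called) and 0 otherwise. For Ang OE against Ctrl it was 11 with ComBat-seq (44.0% of features called), 0 with reads without a genome match (2 members tested, 28.4% of features called) and 0 to 8 with a library left out, and for Ang OE against CC it was 3 with TMM, 2 with DESeq2 size factors (34.6% of features called), 4 with the 2 groups alone (249 of 776 features), 11 with ComBat-seq (49.0% of features called), 0 with reads without a genome match (49.6%) and 1 to 6 with a library left out. CD sperm against Ctrl gave 3 with reads without a genome match (3 tested) and 10 to 16 with a library left out. The number of members whose diets did not overlap in RPM was 0 on the scale of all clean reads and 1 to 4 with a library left out. The cause of these changes was not tested.

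Some fold changes turned direction. Against Ctrl, RNY1 in CC was -0.00095 with TMM and -0.012 with DESeq2 size factors, and with a library left out ranged from -0.32 to 0.31, RNY3 from -0.10 to 0.45, Y RNA from -0.29 to 0.33 and lincRNA from -0.91 to 0.24. In Ang OE, Y RNA was -0.012 per annotated read and -0.051 to 0.13 with a library left out, and RNY1 -0.0063 to 0.20. For Ang OE against CC, Y RNA was 0.014 with all clean reads, 0.24 with TMM and 0.17 with DESeq2 size factors, and -0.29 to 0.33 with a library left out, and RNY1 was -0.22 to 0.41. Among reads without a genome match, lincRNA in Ang OE against CC was 0.12, beside -1.69 over all its reads, and processed_transcript in CD sperm against Ctrl 1.71, beside -2.25.

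With a replicate block the counts were 0 (HFD against CD), 0 (CC), 7 (Ang OE against Ctrl), 9 (Ang OE against CC) and 17 (CD sperm against Ctrl), beside 2.33, 0.617, 27.0, 34.2 and 86.3% of all features called, Y RNA in Ang OE against CC was 0.011, and the crossed block for Ang OE against Ctrl, chosen after seeing the data, gave 8. Classes of under 100 reads limit what can be seen in 3prime_overlapping_ncRNA, macro_lncRNA, sRNA and scRNA.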

Other observations

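Some members, at different levels, varied together over the libraries of 1 kind of cell. Over the 6 sperm libraries, log2 RPM of bidirectional_promoter_lncRNA and sense_intronic had Pearson's r = 0.989 (Spearman's rho = 0.829), and processed_transcript and snoRNA had r = 0.981 (rho = 1). Over the 6 TM4 libraries, antisense and snoRNA had r = 0.993 (rho = 1). These are descriptions over 6 libraries that share depth and total, with no test, and the TM4 values include the difference between Ang OE and the other groups.

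Rfam, a second database of RNA families, held reads of some of the same RNA types after the Ensembl step. Its rRNA class averaged 340 RPM ± 78.3 (SD, n = 3) in CD and 319 RPM ± 60.2 (SD, n = 3) in HFD sperm, above the means of 90.9 and 128 RPM of the Ensembl rRNA class, while its snoRNA and snRNA classes were below those of Ensembl. Rfam snoRNA was 3.14 to 4.47 RPM in CD sperm, 3.39 to 4.71 RPM in HFD sperm, 30.5 and 38.7 RPM in Ctrl, 25.9 and 42.4 RPM in CC and 20.6 and 20.7 RPM in Ang OE. Rfam snRNA was 12.4 to 17.6 RPM in CD, 10.4 to 26.5 RPM in HFD, 27.4 and 42.3 RPM in Ctrl, 15.5 and 38.3 RPM in CC and 23.3 and 24.8 RPM in Ang OE.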
